A study of Mus musculus with 2 samples.

Results

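The axis that links natural killer (NK) cells to type 1 conventional dendritic cells was followed through 8 genes, Xcl1, Xcr1, Flt3l, Flt3, Clec9a, Batf3, Irf8 and Il12b, of the 32285 genes listed in each single-cell count matrix. The genes were taken by symbol, with earlier results of these data known. All 8 had unique molecular identifiers (UMIs, counted RNA molecules) in the cells kept from both libraries. Tumours were grown by orthotopic implantation of KPC cells, a mouse pancreatic cancer line, and were collected 21 days later. The control library came from Porcnfl/fl littermates and the knockout library from Csf1r-Cre;Porcnfl/fl mice, so both groups carried the floxed Porcn allele and only the knockout group carried the Cre. Porcn encodes the enzyme that lipid-modifies Wnt proteins for secretion, and the study asked what changes in the tumour when myeloid cells no longer secrete Wnt. The Cre is driven by Csf1r, a gene of monocytes and macrophages, and the labels call the deletion specific to macrophages. Tumours of 5 mice were pooled for each genotype and gave 1 library, so there was no replicate, no test between genotypes could be made and every difference below lies between 2 libraries. Mouse age and strain background were not given in the sources used here.

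XCL1 is a chemokine released by NK cells and activated CD8 T cells, and XCR1 is its receptor on type 1 conventional dendritic cells (cDC1), which take up dead cells through CLEC9A and cross-present their antigens to CD8 T cells. FLT3L, made by lymphocytes and stromal cells, acts on the receptor FLT3 and maintains dendritic cells, and the transcription factors IRF8 and BATF3 are required for cDC1 development. IL12B is the p40 subunit shared by interleukin 12 and interleukin 23, and interleukin 12 from activated dendritic cells drives interferon gamma in NK and T cells. In tumours this circuit is known for recruiting cDC1 to places where NK cells are found.

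The control library held 173934025 UMIs in 13766 barcodes and the knockout library 137527647 UMIs in 12251 barcodes, of which 11516 and 10467 cells were kept. The libraries shared 46 barcode sequences, 38 of them among kept cells. Porcn stood at 3.096 counts per 1000000 UMIs (CPM) in the control and 1.34 CPM in knockout monocyte/macrophage-like cells, from 8 and 4 UMIs with overlapping intervals, and had no UMI in NK-like or cDC1-like cells of either library, so these counts do not check the deletion in the cells where the Cre acts. In tumour-marker clusters Porcn was at 7.42 CPM (6.99 to 7.86) in the control library and 5.07 CPM (4.63 to 5.53) in knockout, and over all kept cells at 7.18 and 4.93 CPM. Csf1r itself was at 236 CPM in control and 262 CPM in knockout monocyte/macrophage-like cells, and cDC1-like cells held 6 of its UMIs in each library. All intervals given in parentheses are exact 95% intervals for counting error only. They leave out the spread between mice, which pooling hides.

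Cells were grouped into classes without using the 8 genes or the genes of the surrounding pathway. The class of NK-like cells held 40 control and 240 knockout cells, T-like 190 and 1628, cDC1-like 52 and 116, migratory DC-like 18 and 70, and monocyte/macrophage-like 521 and 568. Defining markers were present where the names require them. The activating receptor gene Ncr1 was found in 21 of 40 and 145 of 240 NK-like cells, and the cDC1 markers Naaa and Wdfy4 were at 1409 and 1282 CPM in control and 1434 and 1137 CPM in knockout cDC1-like cells. The 9 migratory DC markers summed to 5850 CPM in control and 5634 CPM in knockout migratory DC-like cells, against 256 and 179 CPM in cDC1-like cells. All of these genes are among the markers used for naming, so their presence follows from the names. The classes were not pure. Within the NK-like class, markers of T cells summed to 1278 CPM in control (11 of 13 markers with a UMI) and 1605 CPM in knockout (13 of 13). In the T-like class, mast cell markers summed to 514 CPM in control (6 of 6 with a UMI) and 5.73 CPM in knockout (4 of 6), and basophil markers to 392 CPM (5 of 5) and 7.50 CPM (4 of 5). UMIs of either list lay in 3 control and 15 knockout T-like cells. Of the knockout cDC1-like cells, 6 carried UMIs of Siglech, Cox6a2 or Klk1, plasmacytoid DC genes, against 1 control cell, and the B cell gene Cd79a was at 0 in both. A cluster whose best class was cDC2 was left unnamed because Lyz2, Ms4a6c and Ccr2 led it, and it held only 8 control cells.

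Over all kept cells, 7 of the 8 genes were at least 2-fold higher in the knockout library and none was 2-fold lower, counted with 1 UMI added to each count. Among all 19425 genes with at least 20 UMIs, 11.7% were 2-fold higher and 2.69% 2-fold lower. Xcl1 was at 1.65 CPM in control (1.46 to 1.85) and 12.2 CPM in knockout (11.6 to 12.8), a ratio of 7.40 (6.51 to 8.43). Il12b followed with 1.35 and 6.75 CPM and a ratio of 5.02 (4.33 to 5.84). These were the largest gains of the 8, at opposite ends of the axis, one made by lymphocytes and the other by dendritic cells.

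Xcr1 was at 0.901 and 3.65 CPM over all kept cells, a ratio of 4.05 (3.37 to 4.90). Irf8 was at 9.57 and 35.8 CPM (ratio 3.74, 3.53 to 3.96) and Flt3 at 1.002 and 3.71 CPM (ratio 3.70, 3.099 to 4.44). Clec9a was at 0.836 and 2.28 CPM (ratio 2.73, 2.23 to 3.36), and Batf3 at 1.59 and 4.07 CPM (ratio 2.55, 2.20 to 2.97). For all 7 genes the intervals of the libraries did not overlap. The growth factor gene Flt3l was the exception, with 7.56 CPM in control (7.15 to 7.99) and 8.38 CPM in knockout (7.89 to 8.89), a ratio of 1.11 (1.02 to 1.20). Weighting every cell equally, in place of summing UMIs, lowered the log2 ratio of Il12b from 2.32 to 1.13 and that of Clec9a from 1.44 to 0.75, below the 2-fold line, while raising that of Flt3l from 0.15 to 0.49.

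**Figure D1:**
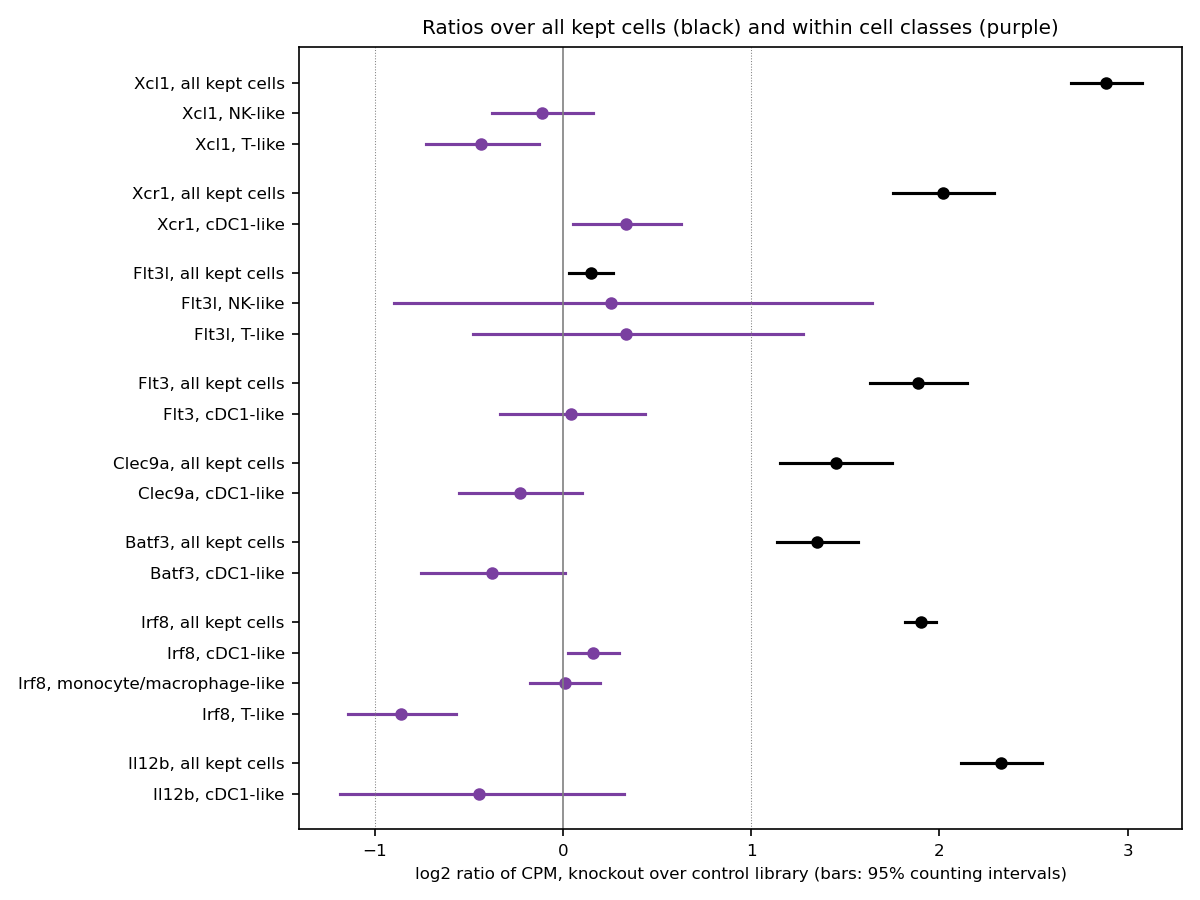
Ratio of knockout to control CPM on a log2 scale for each gene over all kept cells (black) and within chosen cell classes (purple). Bars are 95% counting intervals and dotted lines mark 2-fold. The black points of 7 genes lie beyond 2-fold, and every purple point drawn lies within it. Among the classes not drawn are migratory DC-like cells, which held most Il12b UMIs. Il12b in monocyte/macrophage-like cells, at a ratio of 14.4, is not drawn either.

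In sums over all kept cells, more cells of a type and more RNA per cell cannot be told apart. The ratios can be split into the share of UMIs that each class contributed and the level within classes. With control levels in every class and only the class shares of the knockout library, Xcl1 would have stood at 8.95 times its control value, Il12b at 5.45, Flt3 at 4.55, Irf8 at 4.48, Clec9a at 3.27, Xcr1 at 3.25, Batf3 at 2.55 and Flt3l at 1.06. With the control class shares and knockout levels, the same 8 ratios ranged from 0.883 for Clec9a to 1.26 for Xcr1. The values from class shares lay outside the interval of the measured ratio for Xcl1, Flt3 and Irf8, above it, and for Xcr1, below it. Their own counting error was not computed. For Irf8 they use the level of 8 control B-like cells, 758 CPM from 10 UMIs. For Flt3 they use that of 8 control cells of the unnamed cluster, 168 CPM from 9 UMIs. They also use the levels of 18 control migratory DC-like cells, 594 CPM from 51 UMIs for Flt3 and 2028 CPM from 174 UMIs for Il12b. As shares of kept cells, NK-like cells were 0.347% and 2.29% (ratio 6.60, 4.71 to 9.47), T-like cells 1.65% and 15.6% (ratio 9.43, 8.11 to 11.01), and cDC1-like cells 0.452% and 1.11% (ratio 2.45, 1.76 to 3.47). Migratory DC-like cells were 0.156% and 0.669% (ratio 4.28, 2.52 to 7.63). Tumour-marker clusters, those that scored best for epithelial and tumour markers, went the other way, from 82.0% to 55.2%, and among leukocytes alone the cDC1-like share was 4.16% in control and 3.25% in knockout.

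Restricted to leukocyte clusters (1251 control and 3567 knockout cells), the ratios were smaller for 7 genes. Xcl1 was at 38.5 and 84.9 CPM (ratio 2.20, 1.93 to 2.52), Xcr1 at 20.1 and 25.2 CPM (ratio 1.25, 1.03 to 1.52), and Clec9a at 19.3 and 15.8 CPM (ratio 0.819, 0.665 to 1.01). Flt3l went the other way and became 2.33-fold higher (1.70 to 3.25), from 6.66 to 15.5 CPM. That made 2 of the 8 genes past 2-fold, with intervals that reach below 2, where 8.7% of all genes were 2-fold higher and 13% lower.

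**Figure D2:**
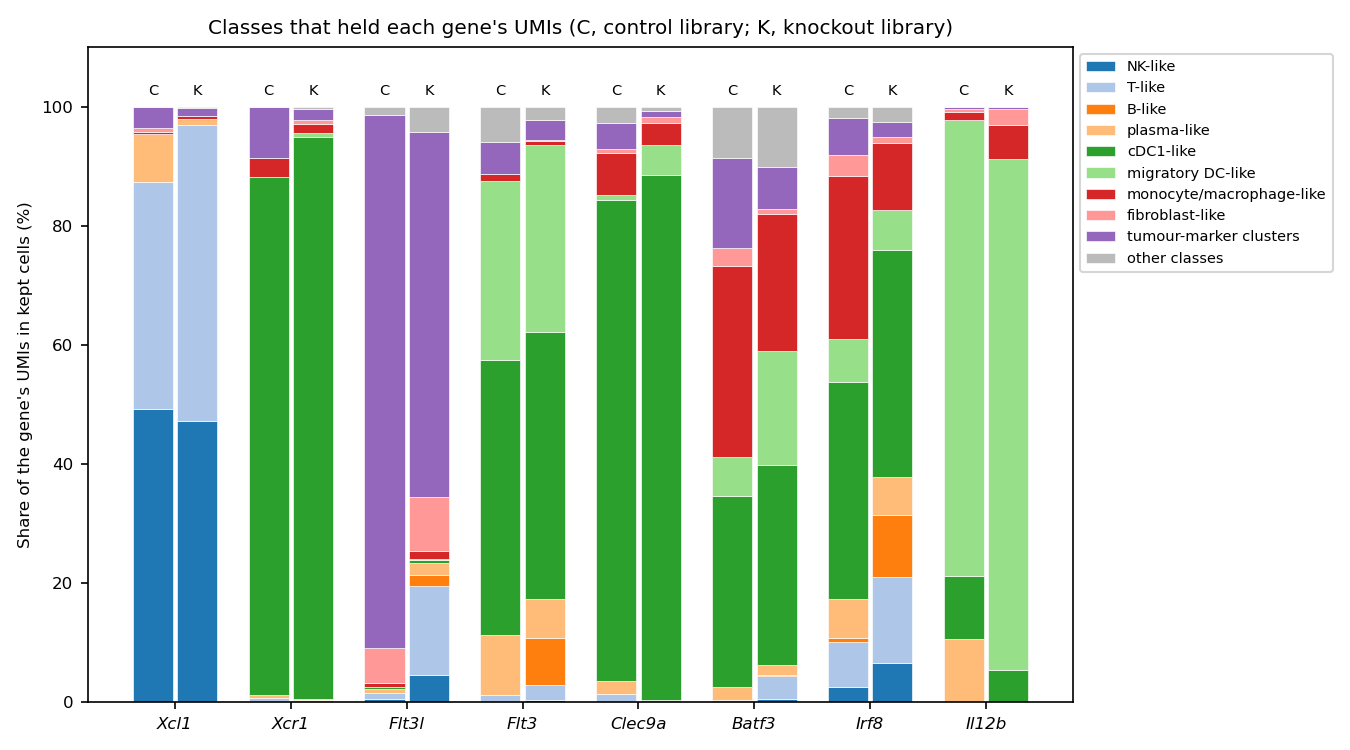
Percentage of each gene's UMIs that came from each cell class, for the control (C) and knockout (K) library. Xcl1 came mostly from NK-like and T-like cells, Xcr1 and Clec9a from cDC1-like cells, Il12b from migratory DC-like cells, and most Flt3l from tumour-marker clusters.

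Xcl1 (ENSMUSG00000026573, GRCm38 chromosome 1, 164931644 to 164935527, minus strand) marked NK-like cells in both libraries. It stood at 968 CPM in control NK-like cells (812 to 1144) and 896 CPM in knockout (833 to 962), a ratio of 0.926 (0.771 to 1.12). After thinning every cell to 1000 UMIs, 14 of 37 control NK-like cells (37.8%, interval 22.5 to 55.2) and 91 of 237 from the knockout (38.4%, 32.2 to 44.9) held an Xcl1 UMI. In tumour-marker clusters, which should lack the gene, thinned cells with an Xcl1 UMI numbered 0 of 9391 and 3 of 5744. Median depth before thinning was 3443 and 3154 UMIs in NK-like cells and 13290 and 14934 in tumour-marker clusters. Without thinning, the shares of NK-like cells were 50% and 57.5%. The levels and shares of the 2 libraries overlapped, and the NK-like level in each library lay above that of every other class.

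The UMIs were unevenly spread over NK-like cells. The highest cell held 27 of 137 Xcl1 UMIs in control and 124 of 745 in knockout, and the median positive cell held 3 in both. Cells with no UMI of the T cell genes Cd3d, Cd3e, Cd3g or Trac numbered 29 of 40 in control and 149 of 240 in knockout. In these, Xcl1 was at 1080 CPM (884 to 1306) in the control and 627 CPM (557 to 703) in knockout. In NK-like cells with such a UMI the order was the opposite, 714 CPM (485 to 1013) in 11 control cells and 1243 CPM (1131 to 1363) in 91 knockout cells. The similar level of the class as a whole thus covered a lower level in one set of cells and a higher level in the other, a split chosen after the values were seen.

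T-like cells held 38.1% of Xcl1 UMIs in control and 49.5% in knockout, beside 49.3% and 47.3% in NK-like cells, so the larger source was NK-like in the control library and T-like in the knockout library. Their level was 155 CPM (127 to 187) in the control and 115 CPM (107 to 123) in knockout, a ratio of 0.740 (0.604 to 0.916). NK marker genes summed to 1239 CPM in control and 639 CPM in knockout T-like cells, most of it Prf1, the perforin gene, at 771 and 335 CPM, while Ncr1 was at 0 and 0.735 CPM. Their part in the Xcl1 ratio was not tested. Without the cells that held a mast cell or basophil marker, Xcl1 was at 161 and 116 CPM (ratio 0.718, 0.585 to 0.887), and none of its UMIs lay in those cells. Within the CD8 cells alone, 113 in control and 714 in knockout, the level was 211 and 197 CPM, a ratio of 0.933 (0.751 to 1.17). When called doublets were kept the T-like class grew to 346 and 1921 cells and the direction turned, to a log2 ratio of 0.72 from -0.45.

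Few T-like cells carried the message. After thinning, 9 of 181 T-like cells of the control (4.97%) and 43 of 1594 of the knockout (2.70%) held an Xcl1 UMI, and the 2 intervals, 2.30 to 9.23 and 1.96 to 3.62, overlapped. One cluster of 34 control and 196 knockout cells, in which Tox, Tnfsf8 and Cd4 were among the 10 leading genes, held 52 of 106 control and 457 of 780 knockout UMIs. Its level was 425 CPM (318 to 558) in the control and 484 CPM (440 to 530) in knockout. The cluster made up 17.9% and 12.04% of T-like cells and 49.1% and 58.6% of their Xcl1 UMIs. A Cd4 UMI was found in 57.4% of its cells and a Cd8a or Cd8b1 UMI in 31.3%. T-like Xcl1 UMIs in CD8 cells (Cd8a or Cd8b1 but no Cd4) were 95 of 106 in control and 672 of 780 in knockout. CD4 cells (Cd4 but neither Cd8 gene) held 1 and 34.

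In the largest CD8 cluster (79 and 447 cells) Xcl1 was at 150 CPM (111 to 198) in the control and 58.4 CPM (48.4 to 69.7) in knockout. The 49 control UMIs lay in 6 cells and the 121 knockout UMIs in 19. In the cluster in which 54.5% of cells had a UMI of Foxp3, the regulatory T cell factor, only 0 and 3 Xcl1 UMIs were found. The T-like level of Xcl1 therefore came from a minority of cells in a few clusters, and its ratio between libraries differed from cluster to cluster.

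Elsewhere Xcl1 was scarce. Plasma-like cells held 22 and 14 UMIs, all of them in 1 of 3 plasma-like clusters, whose 98 cells also expressed tumour genes such as Slpi and Rbp4. In tumour-marker clusters the level was 0.0666 CPM (0.0320 to 0.123) in the control and 0.213 CPM (0.132 to 0.326) in knockout, from 10 and 21 UMIs, and Flt3 was likewise more than 2-fold higher there, from 9 and 16 UMIs. That was 2 of 6 read members in clusters where 4.94% of genes were 2-fold higher. Gm20743 on the opposite strand overlaps Xcl1, and reads of the pair are told apart only if counting used strand, which was not stated.

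**Figure D3:**
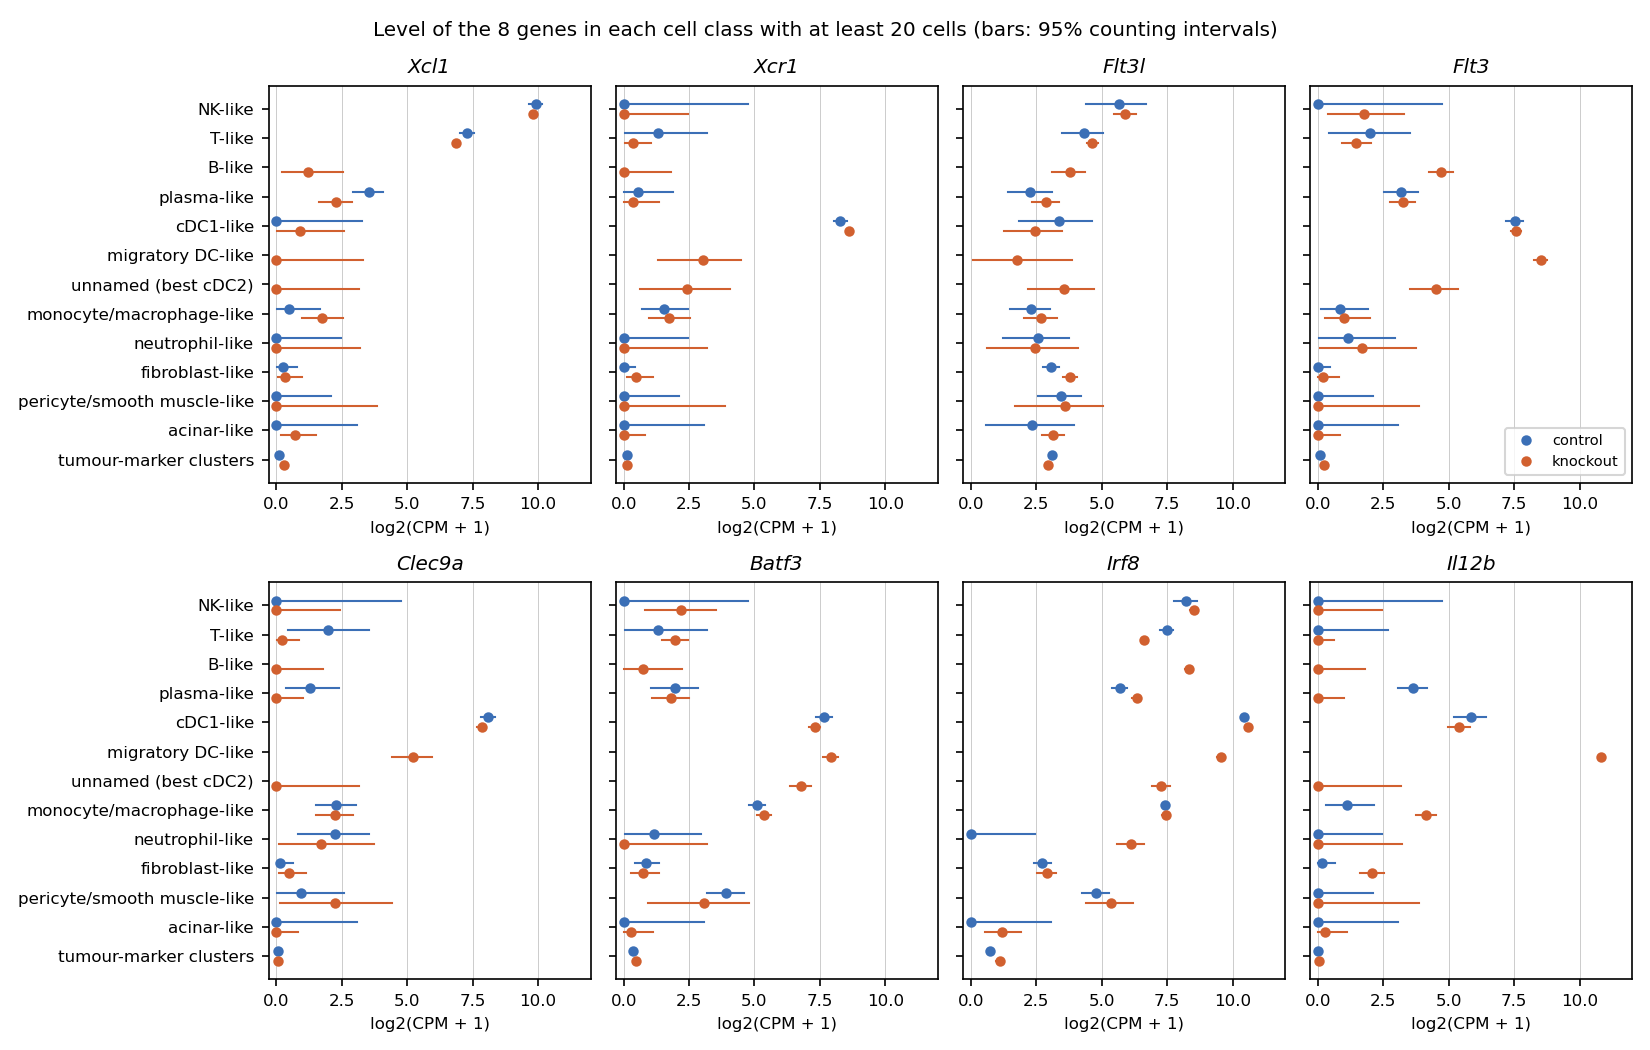
Level of each gene as log2(CPM + 1) in every class with at least 20 cells, control in blue and knockout in orange, with 95% counting intervals. Xcl1 is highest in NK-like cells (968 and 896 CPM), Xcr1 and Clec9a in cDC1-like cells, and Il12b in migratory DC-like cells, where only the knockout library reaches 20 cells.

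Xcr1 (ENSMUSG00000060509, chromosome 9, 123852315 to 123862029, minus strand), the receptor for XCL1, was nearly confined to cDC1-like cells, which held 86.8% of its control UMIs and 94.3% of its knockout UMIs. Its level there was 311 CPM (260 to 368) in the control and 392 CPM (356 to 430) in knockout, a ratio of 1.26 (1.04 to 1.54). The ratio's interval lay just above 1, although the intervals of the 2 levels overlapped. The next class was far lower, monocyte/macrophage-like cells at 1.93 CPM in control, and migratory DC-like cells at 7.27 CPM in knockout from 3 UMIs in 1 cell.

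At 1000 UMIs per cell, Xcr1 was found in 9 of 51 cDC1-like cells from the control (17.6%, interval 8.40 to 30.9) and 27 of 114 from the knockout (23.7%, 16.2 to 32.6). In tumour-marker clusters it was found in 1 of 9391 and 0 of 5744 thinned cells. Without thinning the cDC1-like shares were 63.5% and 62.1%, with median depths of 6128.5 and 9662 UMIs. No NK-like cell held an Xcr1, Clec9a or Il12b UMI. The 0 of 37 and 0 of 237 thinned NK-like cells allow a share of up to 8.11% and 1.27% of cells with a UMI, which at a depth where few cDC1-like cells held one does not limit the share of cells that express the gene. In no NK-like, T-like, cDC1-like, migratory DC-like, monocyte/macrophage-like or tumour-marker cell were Xcl1 and Xcr1 found together.

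Clec9a (ENSMUSG00000046080, chromosome 6, 129408862 to 129424763, plus strand), the receptor for dead-cell actin, shared this profile. In cDC1-like cells it was at 268 CPM (221 to 322) in the control and 229 CPM (202 to 259) in knockout, a ratio of 0.854 (0.682 to 1.07), with overlapping intervals. These cells held 80.9% and 88.1% of its UMIs. Monocyte/macrophage-like cells were at 3.87 and 3.67 CPM, and migratory DC-like cells at 11.7 and 36.3 CPM from 1 and 15 UMIs. Clec1b and Gm43914 overlap its span on the same strand and could share reads with it.

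Across 23 sums of UMIs, 1 for each class and library with at least 20 cells, Xcr1 and Clec9a were the most alike pair among the 8 genes, with a Pearson correlation of 0.965 on log2(CPM + 10). The points come from the same 2 libraries and most classes give 2 of them, so this is a description. Outside the 8 genes, the profile of Xcr1 was most like those of Gpr33 (0.991), Gpr141b (0.990) and Tlr11 (0.990), the last of which is among the markers that name the class. That of Clec9a was most like those of Gramd2 (0.983), Gpr33 (0.982) and Plet1 (0.973).

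Because Xcr1 and Clec9a were so alike in where they were found, the 250 bases before their start sites are shown, with those of Flt3l, the gene whose level over all kept cells differed least between the libraries. The sequences are from RefSeq on GRCm38.p6, written 5′ to 3′ on the gene's strand, and capitals mark a motif match. The windows are chr9:123862030-123862279 (minus strand) for Xcr1, chr6:129408612-129408861 (plus strand) for Clec9a and chr7:45136433-45136682 (minus strand) for Flt3l.
Xcr1: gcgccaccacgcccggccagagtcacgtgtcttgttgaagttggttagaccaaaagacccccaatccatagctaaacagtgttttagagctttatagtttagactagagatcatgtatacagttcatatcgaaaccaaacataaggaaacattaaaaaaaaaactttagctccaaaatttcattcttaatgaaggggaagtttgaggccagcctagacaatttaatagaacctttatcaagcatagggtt
Clec9a: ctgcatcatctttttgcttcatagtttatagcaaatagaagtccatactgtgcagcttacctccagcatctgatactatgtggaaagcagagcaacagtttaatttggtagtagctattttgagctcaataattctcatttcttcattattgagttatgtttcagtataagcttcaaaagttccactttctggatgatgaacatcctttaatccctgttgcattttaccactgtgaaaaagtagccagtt
Flt3l: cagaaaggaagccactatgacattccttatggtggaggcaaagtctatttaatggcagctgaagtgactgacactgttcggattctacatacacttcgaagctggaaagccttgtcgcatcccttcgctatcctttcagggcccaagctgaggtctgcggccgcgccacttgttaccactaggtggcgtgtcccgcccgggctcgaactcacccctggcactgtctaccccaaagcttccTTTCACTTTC
A motif for each of the factor families of BATF3 and IRF8 was searched on both strands, TGANTCA for AP-1 factors and, for interferon regulatory factors, GAAA repeated in the same direction with any 2 bases between the copies. They occurred in 6.75% and 2.98% of 32851 RefSeq promoter windows of that length. Among the windows of the 8 genes the single match was the repeat of GAAA in Flt3l, read on the opposite strand from base 10 to base 1 before the start, and it overlapped no match of the other motif. The matches say only which letters are present in these windows.

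Flt3 (ENSMUSG00000042817, chromosome 5, 147330741 to 147400489, minus strand) encodes the receptor tyrosine kinase for FLT3L and was shared by both dendritic classes. In cDC1-like cells it was at 184 CPM (145 to 229) in the control and 189 CPM (165 to 216) in knockout, a ratio of 1.03 (0.793 to 1.35). In migratory DC-like cells it was at 594 CPM (443 to 781) from 51 UMIs in 18 control cells and 363 CPM (307 to 426) from 150 UMIs in 70 knockout cells. The lower knockout level in migratory DC-like cells rests on a class of 18 control cells. There the keratin genes Krt8, Krt18 and Krt19 were at 361, 303 and 1282 CPM in control and 79.9, 82.4 and 94.5 CPM in knockout. In control they were found in 3, 3 and 4 of the 18 cells. Of the other epithelial markers, Epcam had 1 control UMI, and Krt7, Muc1, Cldn4, Cldn7 and Elf3 had none. Without the cells that held a keratin UMI, 12 control and 47 knockout cells remained, with Flt3 at 850 and 362 CPM. When each cell was named from its own markers, which put 77 control and 94 knockout cells in the class, the direction turned, to a log2 ratio of 1.36.

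Flt3 was also read in the knockout B-like cells, at 25.3 CPM (17.9 to 34.8) in 445 cells, and at 8.12 and 8.48 CPM in plasma-like cells. In the knockout library the order was migratory DC-like above cDC1-like above B-like cells, with no overlap between neighbours. Gm26597 is annotated antisense to Flt3, with the same limit on strand as above.

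Flt3l (ENSMUSG00000110206, chromosome 7, 45129788 to 45136432, minus strand), the ligand of FLT3, was read in every class with 20 or more cells. NK-like cells had the highest level, 49.4 CPM (19.9 to 101.9) in the control and 58.9 CPM (43.6 to 77.9) in knockout, from 7 and 49 UMIs, a ratio of 1.19 (0.537 to 3.12). T-like cells came second with 19.0 CPM (10.1 to 32.5) and 24.0 CPM (20.4 to 27.9), a ratio of 1.26 (0.717 to 2.42). The first 2 classes did not overlap in the knockout library but did in control. At these counts no difference between the libraries was detectable in either class.

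By amount, most Flt3l came from elsewhere. Tumour-marker clusters held 1142 of 1276 control UMIs and 663 of 1083 knockout UMIs, at 7.61 CPM (7.17 to 8.06) and 6.73 CPM (6.23 to 7.26), a ratio of 0.885 (0.803 to 0.974). T-like cells held 1.02% of Flt3l UMIs in control and 15.1% in knockout. Fibroblast-like cells were at 7.40 CPM (5.82 to 9.28) in the control and 12.9 CPM (10.5 to 15.7) in knockout, a ratio of 1.74 (1.27 to 2.39) with separate intervals. That class was split differently over its 2 clusters in the libraries, with 405 control and 717 knockout cells in one and 269 and 49 in the other. Within the first the levels were 10.1 CPM (7.50 to 13.3) and 13.0 CPM (10.5 to 16.0), which overlap (ratio 1.29, 0.905 to 1.86), and within the second 4.82 and 10.5 CPM from 25 and 5 UMIs. The near-equal level of Flt3l over all cells thus combined a slightly lower level in a smaller tumour-marker share with more UMIs from elsewhere. Those came from lymphocytes and also from fibroblast-like cells (75 control and 97 knockout UMIs) and acinar-like cells (2 and 37).

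Among NK-like cells, Xcl1 and Flt3l were read together in 6 of 40 control cells, where 20 held Xcl1 and 7 held Flt3l, and in 27 of 240 knockout cells, where 138 and 43 did. Across the 23 sums the 2 ligands correlated at 0.901, the second most alike pair. Xcl1 was most like Klre1 (0.993), which is among the NK markers, Cd160 (0.987) and Gm14029 (0.986), and Flt3l was most like Gm14029 (0.919), Qrfp (0.913) and Gm10874 (0.912).

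Batf3 (ENSMUSG00000026630, chromosome 1, 191097847 to 191108945, plus strand), the AP-1 type factor on which cDC1 depend, was read in all mononuclear phagocyte classes. In cDC1-like cells it was at 202 CPM (162 to 250) in the control and 156 CPM (134 to 181) in knockout, a ratio of 0.770 (0.592 to 1.01). In migratory DC-like cells it was at 210 CPM (124 to 332) and 242 CPM (197 to 295), and in monocyte/macrophage-like cells at 33.3 CPM (26.6 to 41.1) and 40.4 CPM (33.5 to 48.3). No class showed separate intervals between libraries. In the knockout library the unnamed cluster led by Lyz2 also carried Batf3, at 109 CPM (80.6 to 143) in 88 cells. Its profile was most like those of Grk3 (0.974), Tbc1d9 (0.947) and Htr7 (0.922).

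Irf8 (ENSMUSG00000041515, chromosome 8, 120736358 to 120756694, plus strand), a transcription factor of cDC1, monocytes and B cells, was read in dendritic cells, monocytes and lymphocytes. In cDC1-like cells it was at 1386 CPM (1276 to 1502) in the control and 1549 CPM (1477 to 1623) in knockout, a ratio of 1.12 (1.02 to 1.23). Without the cells that held Siglech, Cox6a2 or Klk1 the levels were 1383 and 1532 CPM and the ratio 1.11 (1.01 to 1.22). In migratory DC-like cells it was at 1340 CPM from 115 UMIs in 18 control cells and 756 CPM from 312 UMIs in 70 knockout cells, and it turned to a log2 ratio of 1.38 when cells were named singly. Irf8 differed little in monocyte/macrophage-like cells, 172 CPM (156 to 189) and 173 CPM (159 to 189), with a ratio of 1.01 (0.887 to 1.15).

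Lymphocytes carried Irf8 as well. NK-like cells were at 297 CPM (214 to 401) in the control and 369 CPM (329 to 413) in knockout. T-like cells were at 178 CPM (148 to 213) and 98.2 CPM (90.9 to 106), a ratio of 0.551 (0.453 to 0.674). After thinning, 24 of 181 and 108 of 1594 T-like cells held an Irf8 UMI, against 3 of 9391 and 3 of 5744 cells of tumour-marker clusters. The T-like level was lower in knockout, with separate intervals, and so were the CD8 cells alone, at 222 and 132 CPM (ratio 0.596, 0.479 to 0.748). Without the T-like cells that held a mast cell or basophil marker the levels were 185 and 98.9 CPM (ratio 0.534, 0.440 to 0.653). With called doublets kept the T-like log2 ratio was 0.03 in place of -0.87. Knockout B-like cells were at 321 CPM (293 to 351) in 445 cells, and the 8 control B-like cells held 10 Irf8 UMIs.

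Neutrophil-like cells held 0 Irf8 UMIs in 292 control cells and 31 in 181 knockout cells, of which 23 lay in 1 cell. It was the single gene of the 8 with at least 20 UMIs in that class, where 7.63% of genes were 2-fold higher. Irf8 was most like Vrk2 (0.921), Fnbp1 (0.913) and Dbnl (0.910) across the 23 sums. Cells of cDC1-like type thus supplied only 36.5% of control and 38.1% of knockout Irf8 UMIs, a far smaller share than for Clec9a and Xcr1.

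Counting Xcr1, Clec9a, Flt3, Batf3 and Irf8 in single cells, 16 of 52 control and 40 of 116 knockout cDC1-like cells held a UMI of all 5. Those with none were 2 and 7. After thinning to 1000 UMIs no cell held all 5, and the most found in a cell was 4, in 1 control and 4 knockout cells. No migratory DC-like or monocyte/macrophage-like cell held all 5 genes in either library, and of 5776 knockout cells in tumour-marker clusters 1 did. Without thinning the combination was read in 30.8% of control and 34.5% of knockout cDC1-like cells, at median depths of 6128.5 and 9662 UMIs. As no thinned cell held it, the libraries cannot be compared for it at equal depth.

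**Figure D4:**
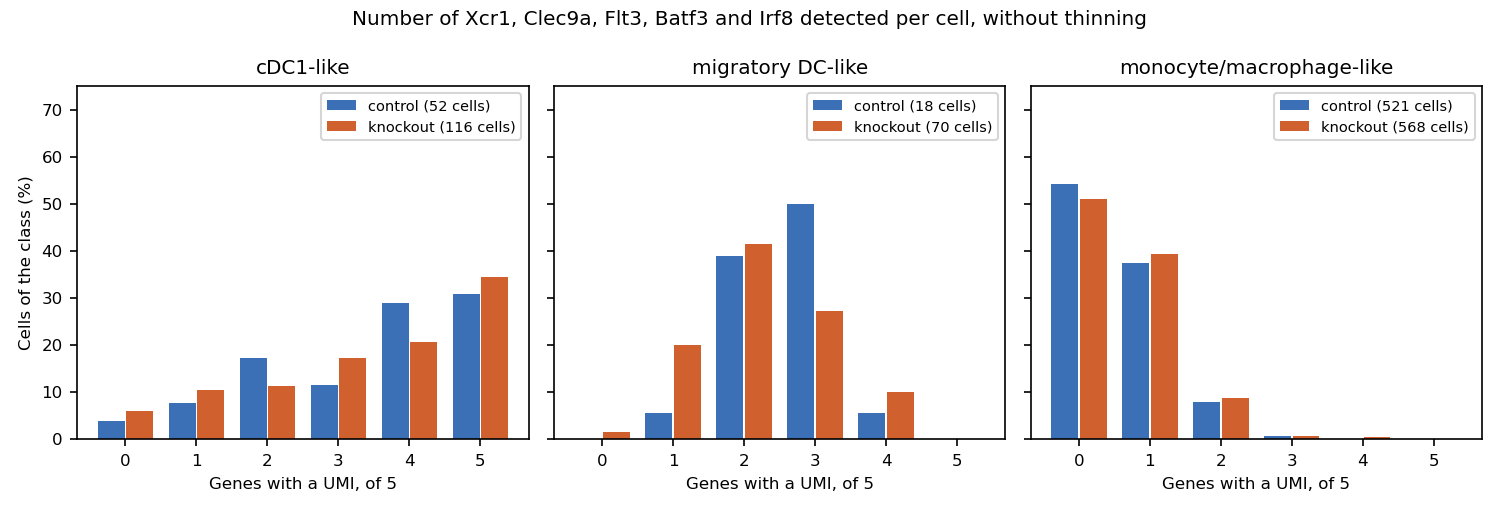
Percentage of cDC1-like, migratory DC-like and monocyte/macrophage-like cells that held a UMI of 0 to 5 of the genes Xcr1, Clec9a, Flt3, Batf3 and Irf8, control in blue and knockout in orange. In cDC1-like cells 30.8% and 34.5% held all 5 genes, and in the other classes none did. Cells were not thinned, and the median depth of cDC1-like cells was 6128.5 UMIs in control and 9662 in knockout.

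Il12b (ENSMUSG00000004296, chromosome 11, 44400063 to 44414033, plus strand) was mostly a gene of migratory DC-like cells, dendritic cells marked by Ccr7 and Fscn1 that have matured and carry antigen to lymph nodes. These held 76.7% of its control UMIs and 85.8% of its knockout UMIs, and in thinned tumour-marker cells it was found in 0 of 9391 and 0 of 5744. The level was 2028 CPM (1738 to 2352) from 174 UMIs in 18 control cells and 1814 CPM (1687 to 1949) from 749 UMIs in 70 knockout cells, with overlapping intervals. One cell held 57 of the control UMIs and another 218 of the knockout UMIs. Cells with 10 or more Il12b UMIs were 6 of 18 and 13 of 70, and they held 129 and 687 UMIs.

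A UMI of Il12b was found in 16 of 18 cells from the control (88.9%, interval 65.3 to 98.6) and 39 of 70 from the knockout (55.7%, 43.3 to 67.6), and after thinning in 12 of 18 (66.7%; 41.0 to 86.7) and 30 of 70 (42.9%; 31.1 to 55.3). Both pairs of intervals overlapped. Weighting cells equally gave a log2 ratio of -1.06 in place of -0.17, the strict cell filter gave 0.41, and naming cells singly gave 2.03, so no direction held across these choices.

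In cDC1-like cells Il12b was at 56.5 CPM (36.2 to 84.0) in the control and 41.4 CPM (30.4 to 55.0) in knockout, from 2 of 52 and 6 of 116 cells. All 6 of these knockout cells also held Flt3 and 4 held Xcr1. Monocyte/macrophage-like cells held 3 control and 50 knockout Il12b UMIs, and 48 of the 50 lay in 1 cell. That made Il12b the only 1 of 5 members read in this class to pass 2-fold, where 2.68% of genes were 2-fold higher and 3.18% lower. Fibroblast-like cells, where 8.09% of genes were 2-fold higher, held 1 control and 24 knockout UMIs, the latter all in 1 cell, and the 24 control UMIs of plasma-like cells lay in the cluster with tumour genes. The profile of Il12b was most like those of Mab21l3 (0.984), Plppr4 (0.979) and Bcl2l14 (0.974).

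Within the classes that carry the axis no member with at least 20 UMIs passed 2-fold, counted on log2 ratios with 1 UMI added. None of the 3 such genes in NK-like cells did, where 5.68% of genes were 2-fold higher and 5.07% lower. The same held for 4 genes in T-like cells (4.1% higher and 6.06% lower), although Batf3 there, with 1 control and 20 knockout UMIs, had a plain ratio of 2.01 (0.322 to 83.4). It held too for 6 genes in cDC1-like cells (3.8% and 3.57%) and 4 in migratory DC-like cells (7.76% and 8.41%).

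The surrounding pathway was read from 47 genes in 6 lists, chosen with earlier results of these data known. Over all kept cells 18 of 47 were 2-fold higher and 1, Csf2, was 2-fold lower. Among all genes with at least 20 UMIs the shares were 11.7% and 2.69%. In NK-like cells 3 of 23 genes with enough UMIs were 2-fold higher and 1 lower, beside 5.68% and 5.07% of all genes. Ccl5, a chemokine that also recruits cDC1, was at 1956 CPM in control and 5241 CPM in knockout NK-like cells (ratio 2.68, 2.37 to 3.04). Ccl4, another chemokine of activated lymphocytes, was at 49.4 and 307 CPM (ratio 6.20, 2.97 to 15.6). Both were higher while the summed level of Xcl1 was not, although weighting cells equally gave Xcl1 a log2 ratio of 0.28. Ccl5 and Ccl4 were not read apart in NK-like cells without a T cell UMI. Of the receptors for the cytokines that support NK cells, Il2rb was at 840 and 867 CPM (ratio 1.03, 0.849 to 1.26). Il18r1 was at 226 and 352 CPM (ratio 1.56, 1.08 to 2.32). Stat4, which carries the interleukin 12 signal, was at 417 and 486 CPM.

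T-like cells had 2 of 42 pathway genes 2-fold higher and 6 lower, beside 4.1% and 6.06% of all genes. Ccl4 was at 2325 CPM in control and 940 CPM in knockout (ratio 0.404, 0.383 to 0.427), the opposite of NK-like cells. Ifng, the interferon gamma gene induced by interleukin 12 and named here after its values were seen, was at 542 and 184 CPM (ratio 0.340, 0.302 to 0.383). Ccl5 was at 2463 and 3395 CPM. Stat4 was at 231 and 266 CPM and Ifngr1, a receptor for interferon gamma, at 250 and 400 CPM. Without the cells that held a mast cell or basophil marker, Ccl4 was at 2415 and 931 CPM and Ifng at 564 and 185 CPM. Summed over the class, Ccl4 and Ifng were thus lower in knockout T-like cells with and without those cells, and Ccl5 was not. The make-up of the class differed between the libraries. CD8 cells were 113 of 190 in control and 714 of 1628 in knockout. The largest CD8 cluster was 41.6% and 27.5% of T-like cells, and the Foxp3 cluster 10% and 18.0%. Levels of these genes in CD8 cells alone are not given here.

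In cDC1-like cells 5 of 28 pathway genes were 2-fold higher and none lower, beside 3.8% and 3.57% of all genes. Cxcl9, the interferon-induced chemokine that attracts CXCR3-bearing T cells, was at 167 CPM in control and 416 CPM in knockout (ratio 2.49, 1.94 to 3.24), and Ccl4 was at 16.5 and 81.9 CPM (ratio 4.97, 2.32 to 12.7). In the same class T cell markers summed to 4.71 and 45.8 CPM and acinar markers to 0 and 38.7 CPM. Epithelial markers went the other way, 231 and 124 CPM. The part of such RNA in the Ccl4 ratio was not tested. Cxcl10, singled out after its values were seen, was at 7.06 and 37.9 CPM from 3 and 43 UMIs, and weighting cells equally turned its direction, to a log2 ratio of -0.26. Tcf4, a factor of plasmacytoid dendritic cells named for the same reason, was at 56.5 and 127 CPM. Of its 144 knockout UMIs 89 lay in the 6 cells that held Siglech, Cox6a2 or Klk1, and without such cells it was at 56.7 and 51.1 CPM.

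Cross-presentation genes stood closer together. Tap1, a peptide transporter subunit, was at 233 and 321 CPM (ratio 1.38, 1.10 to 1.74), and weighting cells equally turned it to a log2 ratio of -0.068. Rab43, a trafficking factor, was at 407 and 529 CPM (ratio 1.30, 1.10 to 1.55). None of the 7 read genes of that list passed 2-fold in cDC1-like cells. Id2, a factor needed for cDC1, was at 903 and 765 CPM, and Spi1 at 292 and 316 CPM. The receptor genes Csf2ra and Csf2rb were at 151 and 154 CPM and at 101.2 and 105 CPM. Ebi3, a subunit of interleukin 27 and the fifth gene past 2-fold, was at 9.41 and 29.1 CPM from 4 and 33 UMIs. Il18, a cytokine that acts on NK cells, was at 21.2 and 44.9 CPM from 9 and 51 UMIs, a ratio of 2.12 (1.03 to 4.90) that falls below 2-fold with 1 UMI added to each count.

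In migratory DC-like cells 5 of 24 pathway genes were 2-fold higher and 2 lower, on the same 18 control cells. Of all genes read there, 7.76% were higher and 8.41% lower. Ccl5 was at 1014 CPM from 87 UMIs in control and 3783 CPM from 1562 UMIs in knockout. T cell markers there summed to 0 and 104 CPM and acinar markers to 11.7 and 38.8 CPM, while epithelial markers went from 1958 to 262 CPM. Only 4 of the 9 epithelial markers had a UMI in control, and 110 of their 168 UMIs were of Krt19. The part of such RNA in the Ccl5 levels was not tested. Stat4 was at 1165 and 790 CPM and Id2 at 1084 and 1177 CPM.

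In monocyte/macrophage-like cells, the class with Csf1r, 5 of 38 pathway genes were 2-fold higher and none lower. Of all genes read there, 2.68% were higher and 3.18% lower. Named after their values were seen, Cxcl9 was at 315 CPM in control and 924 CPM in knockout (ratio 2.93, 2.71 to 3.17), Cxcl10 at 178 and 511 CPM (ratio 2.87, 2.58 to 3.19), and Ccl5 at 171 and 428 CPM (ratio 2.50, 2.24 to 2.79). The class was spread differently over its 4 clusters in the libraries, from 35 control and 155 knockout cells in one to 138 and 83 in another. Within these clusters the ratio of Cxcl9 was between 1.60 (1.15 to 2.24) and 3.67 (2.69 to 5.14), that of Ccl5 between 1.63 (1.33 to 1.99) and 7.77 (4.49 to 14.4), and that of Cxcl10 between 1.09 (0.929 to 1.28) and 3.005 (2.34 to 3.88). All 3 genes were higher in knockout in each cluster, with an interval that reached below 1 for Cxcl10 in 1 of them.

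T cell and acinar markers moved with these levels in monocyte/macrophage-like cells, while epithelial markers went the other way, 512 CPM in control and 307 CPM in knockout. T cell markers summed to 17.4 CPM in control (12 of 13 with a UMI) and 90.5 CPM in knockout (13 of 13), and acinar markers to 15.1 CPM (5 of 9) and 213 CPM (9 of 9). Without the 36 control and 202 knockout cells that held a UMI of Cd3d, Cd3e, Cd3g, Trac or an acinar marker, Cxcl9 was at 308 and 1254 CPM, Cxcl10 at 215 and 624 CPM and Ccl5 at 165 and 421 CPM. Among the same cells Irf8 was at 171 and 176 CPM (ratio 1.03, 0.878 to 1.20) and Batf3 at 34.4 and 50.3 CPM (ratio 1.46, 1.06 to 2.02). Acinar markers were also higher in the knockout library in NK-like cells (14.1 and 96.2 CPM) and T-like cells (35.1 and 111 CPM).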

How the data were processed

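Single-cell RNA was measured in 1 control and 1 knockout library, each from tumours of 5 pooled mice, made with 10x 3′ chemistry. The deposited matrices hold counts of UMIs per gene and cell barcode. The submitters' processing notes name mm10 and Cell Ranger 3.1.3, whereas the header of the count files names cellranger 8.0.0; use of strand and intron reads in the counting is not given in the sources used here. Barcodes passed with a minimum of 500 genes and no more than 15% of UMIs from mitochondrial genes (11664 control and 10808 knockout), and Scrublet in scanpy 1.11.5 removed 148 (1.27%) and 341 (3.16%) as doublets. Median depth of kept cells was 12167.5 and 10109 UMIs.

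Cells were clustered on log-normalised counts (2000 variable genes without the 8 genes and the pathway genes, 30 components, 15 neighbours, Leiden resolution 1), and leukocyte clusters were clustered again. Clusters were named from marker lists by a scoring rule set after the clusters were seen, and a cluster led by genes of another class stayed unnamed. Counts were summed per class and library and given as CPM with exact Poisson 95% intervals. Ratios are knockout over control with exact conditional intervals, and log2 ratios add 1 UMI. Shares of cells have exact Clopper-Pearson intervals, and a share of 0 is limited by 3 counts. UMIs are not a census of independent molecules from independent mice, so intervals cover counting error only. Genes with at least 20 UMIs over both libraries in a class were counted past 2-fold. A knockout and a control library without replicates allow no test, and no p-value was computed. Named genes were the 8 genes in every class, the 2 genes of each pathway list with the most UMIs in a class, others said to be chosen on sight of their values, and the 3 genes most like each of the 8 among 16095 genes with at least 100 UMIs. The 8 genes, pathway lists and marker lists were chosen with earlier results of these data known. Alternatives changed the cell filter, doublet removal, naming, clustering, scaling, pseudocount, thinning and UMI minimum. The summing and intervals were tested on simulated data. Gene positions are from GENCODE M21 on GRCm38, in which 32158 of 32285 identifiers matched.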

Additional observations from a re-analysis of the deposited data

How the results depend on the processing

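No paired analysis was possible because each genotype has 1 library of pooled mice, so replicate numbers pair nothing and no replicate can be left out. Of 213 log2 ratios of the 8 genes recomputed under alternatives, 189 stayed within the counting interval of the reported ratio and 22 moved outside it. The other 2 turned from a reported interval that did not span equality. Changes of direction in ratios whose interval spanned equality were not counted as turned. Some of the 22 changed direction, such as Il12b in migratory DC-like cells. For none of those that moved or turned was the cause tested. Alternatives that leave out cells by a marker, take CD8 cells alone or drop the highest cell, and all alternatives for the pathway genes, were chosen after seeing the data.

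Weighting cells equally gave log2 ratios over all kept cells of 1.47 for Xcr1, 1.62 for Flt3, 0.49 for Flt3l, 0.75 for Clec9a, 1.04 for Batf3, 1.75 for Irf8 and 1.13 for Il12b. It gave 0.28 for Xcl1 in NK-like cells and -1.06 for Il12b in migratory DC-like cells, and it turned Cxcl10 to -0.26 and Tap1 to -0.068 in cDC1-like cells. With called doublets kept, T-like cells gave 0.72 for Xcl1, 0.031 for Irf8 and 0.77 for Il2rb, all turned. Naming each cell from its own markers gave 0.73 for Xcr1, 0.13 for Clec9a and 0.49 for Irf8 in cDC1-like cells, where it turned Tcf4 to -0.71, Il18 to -0.20 and Id2 to 0.15. In migratory DC-like cells it gave 2.03 for Il12b and turned Flt3 to 1.36, Irf8 to 1.38 and Stat4 to 1.49.

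The strict cell filter, under which Scrublet called no doublet in the control library, gave 0.36 for Irf8 in monocyte/macrophage-like cells, and for Il12b 0.41 in migratory DC-like cells and 2.59 over all kept cells. Il12b in migratory DC-like cells was -0.42 with the loose filter, -0.43 with the 8 genes and pathway genes left in the clustering and -0.46 at resolution 2. Xcl1 was -0.79 in NK-like cells without a T cell UMI and -0.11 in CD8 cells alone. Flt3 was -1.26 in migratory DC-like cells without a keratin UMI, and Tcf4 turned to -0.18 in cDC1-like cells without Siglech, Cox6a2 or Klk1. At minimums of 10 and 50 UMIs, in place of 20, genes past 2-fold in NK-like cells numbered 602 and 139 higher (350 at 20) and 682 and 47 lower (312). In T-like cells a minimum of 50 gave 273 higher (464 at 20), and minimums of 10 and 50 gave 1111 and 271 lower (685). In cDC1-like cells these were 484 and 86 higher (269) and 560 and 56 lower (253).

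The migratory DC-like class had 18 control cells, and a few cells held most Il12b UMIs. The spread between mice was not measured.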
